A study of Ambystoma mexicanum with 8 samples.

Results

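The 10 genes described here are the immediate early genes FOS, FOSB, FOSL1, JUN, JUNB, JUND, EGR1, ATF3, IER2 and DUSP1 of the axolotl (Ambystoma mexicanum) limb. They were found by their symbol in the deposited gene list, and all 10 symbols occurred there, on 16 of its 61014 gene models. Models with the same symbol were kept apart. For each symbol 1 model held most of the UMIs (unique molecular identifiers, each standing for 1 captured RNA molecule) and is called the main model. The main models are FOS AMEX60DD301011151.1, FOSB AMEX60DD301024876.2, FOSL1 AMEX60DD301025233.1, JUN AMEX60DD301019448.1, JUNB AMEX60DD201031925.1, JUND AMEX60DD301014112.1, EGR1 AMEX60DD201027946.1, ATF3 AMEX60DDU001003554.1, IER2 AMEX60DD201032064.2 and DUSP1 AMEX60DD301028721.1. The study compared wild-type limbs of animals that had not been amputated (intact, 3 samples) with systemically activated limbs taken 14 days after an amputation (contra, 4 samples). All limbs were dissociated with an enzyme mix, stained for viability and DNA content, and sorted for live cells of the 2C fraction, for which 10x 3' single-cell libraries were made. The sources disagree on whether the sorted 2C cells were dividing, and the labels do not say whether animals were pooled. Replicates 1, 2 and 4 of both groups and contra replicate 5 were analysed, while intact replicate 5 was not analysed here. Nothing in the labels says that the samples came from separate animals, so p-values measure the spread between these samples.

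Immediate early genes are transcribed within minutes of a stimulus, without new protein synthesis, mostly through serum response factor and the MAP kinases. FOS and JUN proteins pair through their leucine zippers to form the transcription factor AP-1, ATF3 is a stress-induced partner of the same class, and EGR1 is a zinc finger factor. DUSP1 is a phosphatase that switches the MAP kinases off again. In many tissues these genes also respond to dissociation of the tissue into single cells. All samples here were dissociated, so that response and the level in the limb cannot be told apart.

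Cells were grouped by UMIs of marker genes, without clustering and without any of the 10 genes. After doublet removal 34574 of 35013 cells were kept, with 96526090 to 131397510 UMIs per sample. Erythroid-gated cells were 13459, T-cell-gated 9399, epidermal-gated 7122, B-cell-gated 1965, cytotoxic-gated cells with little CD3 609 and macrophage-gated cells 348, while only 13 cells met the fibroblast gate and were not described. CD3E, C1QB and EPCAM are themselves gate markers, so their high values inside a gate and low values outside follow from the gating. They are no test of the gates. CD3E averaged 631 CPM (UMIs per 1000000 UMIs of the summed cells) in T-cell-gated cells and at most 15.2 CPM elsewhere. C1QB averaged 900 CPM in macrophage-gated cells and at most 0.305 CPM elsewhere. EPCAM averaged 639.5 CPM in epidermal-gated cells and at most 10.0 CPM elsewhere. Of the neutrophil list, LYZ was high in macrophage-gated cells. The summed list had 17189 CPM there, against 3504 CPM for the macrophage list and at most 314 CPM of the neutrophil list in the other types. Neutrophils had no gate of their own, and their part among macrophage-gated cells was not tested. The share of epidermal-gated cells ranged from 3.02% to 46.9% of a sample's cells. A total of 236 cells (0.674%) shared a barcode with a cell of another library.

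FOS, the archetypal partner of JUN in AP-1, was highest in macrophage-gated and epidermal-gated cells. In macrophage-gated cells FOS had 203, 237 and 231 CPM in intact samples 1, 2 and 4 and 248, 293, 326 and 264 CPM in contra samples 1, 2, 4 and 5. In epidermal-gated cells the same samples had 220, 218, 152, 196, 190, 190 and 132 CPM. FOS was higher in macrophage-gated than in epidermal-gated cells in 6 of 7 samples (mean log2 difference 0.48 ± 0.38 SD, exact sign-flip p 0.0312, adjusted p 0.0865). Here and below, sign-flip p values are unadjusted unless called adjusted. Adjusted over all models with at least 100 UMIs, no comparison between macrophage-gated and epidermal-gated cells was below 0.05. The same held for all pairs among macrophage-gated, T-cell-gated, B-cell-gated and cytotoxic-gated cells. In T-cell-gated cells FOS ranged from 18.4 to 53.2 CPM, in B-cell-gated cells it averaged 18.6 CPM, and in cytotoxic-gated cells 12.7 CPM. The step from epidermal-gated to T-cell-gated cells was 2.62 ± 0.33 on the log2(CPM + 1) scale (SD, n = 7, lower in T-cell-gated cells in 7 of 7 samples, exact sign-flip p 0.0156, the smallest that 7 pairs can give). FOS was also lower in B-cell-gated than in T-cell-gated cells in all 7 samples, by 0.63 ± 0.45.

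FOSB, a close relative of FOS, had 169 ± 50.3 CPM in epidermal-gated cells and 147 ± 51.6 CPM in macrophage-gated cells (SD, n = 7), and the order of these types was the same in only 5 of 7 samples (exact sign-flip p 0.188). Its levels in T-cell-gated and B-cell-gated cells, 25.4 and 24.5 CPM, differed by less than their spread. FOSL1, which encodes FRA-1, had its UMIs in fewer types. It had 50.2 ± 14.4 CPM in epidermal-gated cells, with 46.6, 78.5 and 36.4 CPM in the intact and 41.0, 59.7, 43.0 and 46.2 CPM in the contra samples, and 16.7 ± 12.3 CPM in macrophage-gated cells. Epidermal-gated cells were above macrophage-gated cells in 7 of 7 samples, by 1.78 ± 0.98 on the log2 scale (exact sign-flip p 0.0156, adjusted p 0.0549). All other types averaged at most 2.29 CPM of FOSL1.

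Of the JUN family, JUN had 109 ± 24.8 CPM in macrophage-gated and 95.8 ± 17.1 CPM in epidermal-gated cells (SD, n = 7), with no order beyond the spread (exact sign-flip p 0.266). T-cell-gated, B-cell-gated and cytotoxic-gated cells had 20.8, 20.6 and 25.6 CPM of JUN, and these neighbours did not differ beyond their spread either. JUNB had 252 ± 46.1, 233 ± 38.8, 85.0, 80.4 and 67.9 CPM in macrophage-gated, epidermal-gated, cytotoxic-gated, B-cell-gated and T-cell-gated cells. JUNB in B-cell-gated cells was above T-cell-gated cells in 7 of 7 samples. The macrophage-gated and epidermal-gated levels of JUNB did not differ beyond their spread (exact sign-flip p 0.672), and edgeR's TMM scaling gave them the opposite order (log2 difference -0.049 ± 0.13 SE). JUND, often the most steadily expressed member of the family, had 482, 491, 444, 474, 683, 635 and 455 CPM in macrophage-gated cells of the 7 samples in the order above. It had 221 to 349 CPM in epidermal-gated cells, so the ranges of the 2 types did not overlap (log2 difference 1.01 ± 0.26 SD). In epidermal-gated, cytotoxic-gated, T-cell-gated and B-cell-gated cells JUND averaged 259, 236, 199 and 192 CPM, a narrower span than that of FOS. Epidermal-gated and cytotoxic-gated cells did not differ beyond their spread by the exact test (sign-flip p 0.391). For this pair edgeR with the sample as a block called JUND higher in epidermal-gated cells (0.47 ± 0.13 SE, adjusted p 0.00406).

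ATF3 was highest in epidermal-gated cells, with 294, 347 and 152 CPM in intact and 201, 284, 237 and 162 CPM in contra samples. In macrophage-gated cells it had 113, 98.9, 43.7, 88.5, 107, 129 and 73.9 CPM. This was below the epidermal-gated cells of the same sample in 7 of 7 samples, by 1.36 ± 0.34 on the log2 scale (SD, exact sign-flip p 0.0156, adjusted p 0.0549). B-cell-gated cells were next with 39.0 CPM of ATF3, above T-cell-gated cells (28.2 CPM) in 7 of 7 samples. EGR1 likewise was highest in epidermal-gated cells, at 137, 211, 128.3, 169, 154, 140 and 127 CPM. In macrophage-gated cells EGR1 had 43.9 to 172 CPM, with contra sample 4 at the top of that range and above its own epidermal-gated cells. The difference between these types was 0.93 ± 0.70 (SD, 6 of 7 samples, exact sign-flip p 0.0469, adjusted p 0.120). T-cell-gated, cytotoxic-gated and B-cell-gated cells had 27.0, 25.1 and 23.9 CPM of EGR1 and did not differ beyond their spread.

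IER2 encodes a small nuclear protein induced with FOS and JUN. Macrophage-gated cells had 226 ± 41.3 CPM of IER2, B-cell-gated cells 169, epidermal-gated cells 151 ± 25.4 and T-cell-gated cells 131 ± 38.7 CPM. Cytotoxic-gated cells had 63.3 CPM and lay below T-cell-gated cells in 7 of 7 samples (log2 difference 1.02 ± 0.41 SD, exact sign-flip p 0.0156, adjusted p 0.125). IER2 in macrophage-gated cells was above B-cell-gated cells by 0.43 ± 0.27 and above epidermal-gated cells by 0.58 ± 0.32 (SD, 7 of 7 samples each, exact sign-flip p 0.0156). B-cell-gated and epidermal-gated cells did not differ beyond their spread (exact sign-flip p 0.234). For epidermal-gated against T-cell-gated cells the exact sign-flip p was 0.188, while edgeR with the sample as a block called the difference (0.54 ± 0.13 SE, adjusted p 0.00169). DUSP1, the feedback phosphatase, had 871, 740, 788, 806, 838, 1117 and 803 CPM in macrophage-gated cells. In epidermal-gated cells it had 529, 442, 393, 403, 410, 441 and 349 CPM, lower in 7 of 7 samples by 1.00 ± 0.22 on the log2 scale. Cytotoxic-gated cells came next with 224 CPM of DUSP1. They were above T-cell-gated cells (118 CPM) in 7 of 7 samples by 0.93 ± 0.15 (SD, exact sign-flip p 0.0156, adjusted p 0.125). This is the reverse of their order for IER2.

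**Figure D1:**
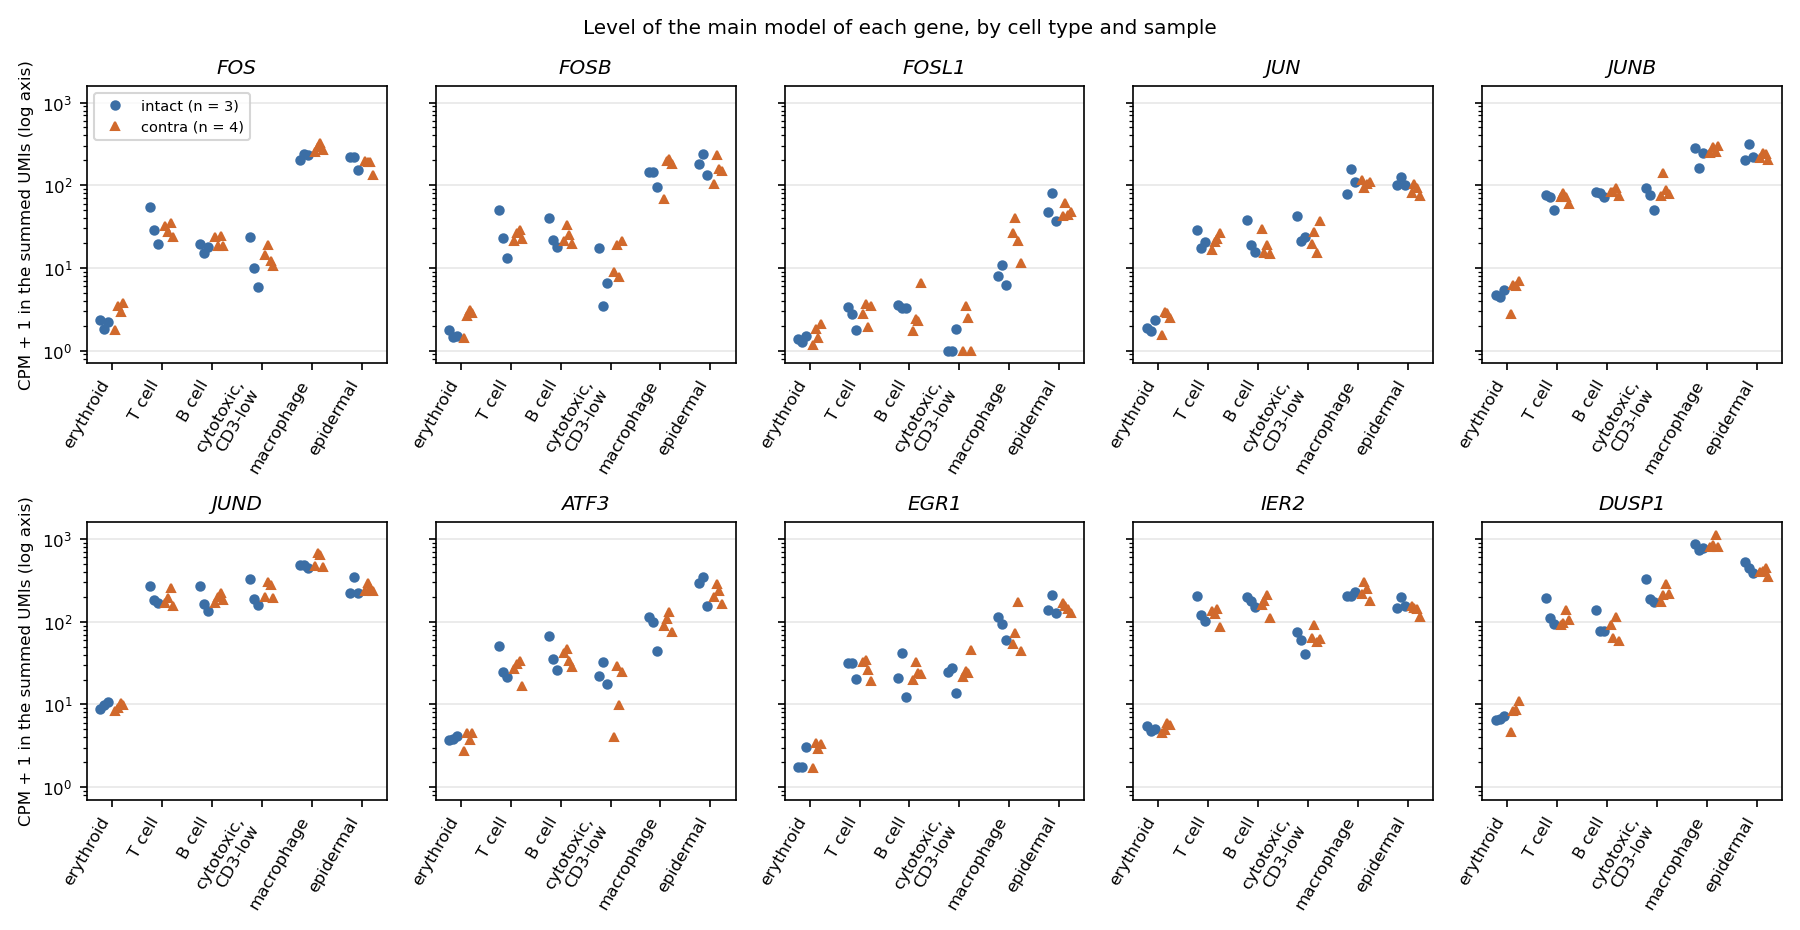
Level of the main model of each of the 10 genes in 6 marker-gated cell types. The log y axis gives CPM + 1 in the summed UMIs of a sample, each point is 1 sample, blue circles are intact (n = 3) and orange triangles contra (n = 4). Macrophage-gated or epidermal-gated cells have the highest mean for each gene, FOSL1 averages at most 2.29 CPM outside these types, and JUND averages 192 to 259 CPM in the lymphoid, cytotoxic and epidermal types.

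Taking the 10 main models as a group, edgeR's quasi-likelihood test with the sample as a block called 10 of 10 higher in epidermal-gated than in T-cell-gated cells (adjusted p under 0.05 over all models tested). Of all models, 70.4% were called in that comparison, and 33.6% were called higher in epidermal-gated cells. Macrophage-gated cells were called higher than T-cell-gated cells for 10 of 10 (48.7% of all models called, 24.1% higher in macrophage-gated cells). Between macrophage-gated and epidermal-gated cells the members split, with JUND, DUSP1, FOS and IER2 higher in the former, FOSL1, ATF3, EGR1 and FOSB higher in the latter, and JUN and JUNB past the test in neither direction (62.3% of all models called). Between T-cell-gated and B-cell-gated cells 5 of 10 were called, FOS and DUSP1 higher in T-cell-gated and ATF3, IER2 and JUNB higher in B-cell-gated cells (54.5% of all models called). By the exact test, adjusted over all 28855 models with at least 100 UMIs, 74 of 150 comparisons passed. A model at the smallest possible p, 0.0156, passed only in pairs of types where enough of all models were also at it. The count therefore depends on the pairs of types and decides nothing about the members. Macrophage-gated cells were above T-cell-gated cells in all 7 samples for 9 of 10 main models and above B-cell-gated cells for 10 of 10, yet 0 passed. The share of all models with all 7 samples in that direction was not taken. By edgeR, 24.1% of all models were higher in macrophage-gated than in T-cell-gated cells, and 34.0% higher than in B-cell-gated cells. Of all models, 89.3%, 62.5%, 41.4%, 74.3% and 46.4% passed between erythroid-gated and T-cell-gated, B-cell-gated, macrophage-gated, epidermal-gated and cytotoxic-gated cells, and 64.0%, 40.1% and 34.1% between epidermal-gated and T-cell-gated, B-cell-gated and cytotoxic-gated cells. It was 0.0% in the other 7 pairs of types, all those among macrophage-gated, T-cell-gated, B-cell-gated and cytotoxic-gated cells and the pair of macrophage-gated with epidermal-gated cells, where edgeR called 22.5% to 67.6% of models.

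Erythroid-gated cells had the lowest mean CPM of all 10 main models. For FOSL1 the margin to cytotoxic-gated cells (0.521 against 0.675 CPM) lay within the spread. FOS averaged 1.62 ± 0.789 CPM, JUND 8.57 ± 0.893 CPM and DUSP1 6.55 ± 2.00 CPM there. These cells gave a median of 78.1% of their UMIs to haemoglobin, which lowers the CPM of every other gene. With haemoglobin UMIs left out of the total, FOS averaged 7.06 ± 3.41 CPM, JUND 37.2 ± 3.098 CPM and DUSP1 28.4 ± 7.88 CPM, still below 30.7, 201 and 119 CPM in T-cell-gated cells. FOSL1 was the exception, with 2.26 CPM without haemoglobin in erythroid-gated against 1.81 CPM in T-cell-gated cells, so its order depended on the scale. As a gauge of free RNA, the epidermal keratins KRT12 and KRT5 had in erythroid-gated cells 1.41% and 1.35% of their epidermal level on the scale without haemoglobin. FOSB had 2.00% there, FOS 3.38% and JUND 14.8%. In T-cell-gated cells the keratins had 0.536% and 0.585% of their epidermal level, against 4.23% for FOSL1, 15.7% for FOS and 72.4% for JUND.

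The smaller models did not follow their main models in a fixed ratio. The second DUSP1 model (AMEX60DD102028722.2, 8395 UMIs in all) was nearly flat, with 24.9, 24.8, 21.7, 20.4 and 19.2 CPM in epidermal-gated, macrophage-gated, B-cell-gated, T-cell-gated and cytotoxic-gated cells and 0.906 CPM in erythroid-gated cells. Its UMIs were 2.97% of those of the main model in macrophage-gated cells, 6.11% in epidermal-gated cells and 23.8% in B-cell-gated cells. The second JUN model (AMEX60DD201043789.1, 1624 UMIs) was highest in macrophage-gated cells, at 15.7 ± 5.66 CPM, and had 4.82, 4.10, 3.89 and 3.104 CPM in cytotoxic-gated, T-cell-gated, epidermal-gated and B-cell-gated cells. Its ratio to the main model ran from 4.19% in epidermal-gated to 22.3% in erythroid-gated cells. The second FOS model (AMEX60DD103011154.2) had 402 UMIs, 305 of them in epidermal-gated cells. The second FOSB model (AMEX60DD301024877.2) had 348 UMIs, 238 of them in epidermal-gated cells. The second IER2 model (AMEX60DD201032065.1) had 99 UMIs and the remaining FOS model (AMEX60DD301011153.1) had 7, all in epidermal-gated cells. RefSeq lists 1 gene for each of the 10 symbols, and the counts of models that share a symbol may be split between copies, so values of the second models are uncertain.

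The share of cells with at least 1 UMI gave a similar picture once each cell was thinned to 3000 UMIs. FOS was seen in 44.1% ± 9.66 of macrophage-gated, 39.7% ± 4.84 of epidermal-gated and 8.04% ± 2.54 of T-cell-gated cells (SD, n = 7), and in 0.523% of erythroid-gated cells. EGR1 was seen in 16.8%, 30.0%, 6.95% and 0.472% of the same types and DUSP1 in 73.4%, 64.8%, 23.3% and 2.14%. Without thinning the order of macrophage-gated and epidermal-gated cells turned, with FOS in 70.2% and 90.7% and DUSP1 in 87.9% and 97.2% of them. The UMIs were concentrated in fewer cells among T cells than in the epidermis: the tenth of cells with the highest level held a median over samples of 23.9% of the FOS signal in epidermal-gated cells and 74.9% in T-cell-gated cells. For ATF3 these values were 34.2% and 96.2%, and for JUND 27.9% and 38.2%. A gene with few UMIs is concentrated in this measure by sampling alone, and T-cell-gated cells had a median of 12127 UMIs against 21853 in epidermal-gated cells.

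Across single epidermal-gated cells the 10 genes were positively correlated with each other. The 45 pairs of genes had a median Pearson r of 0.43 over pairs, each pair taken as the median over 7 samples, from 0.25 for FOSL1 with JUN to 0.59 for ATF3 with DUSP1. The highest values other than that were for FOSB with ATF3 (0.56), JUND with ATF3 (0.55) and FOSB with JUND (0.54). In T-cell-gated cells the median was 0.15, from 0.017 for FOSL1 with IER2 to 0.29 for FOS with FOSB. Cells of a sample share a library, and cells with more UMIs give steadier values, so these correlations are descriptions. Other genes of similar level were not correlated in this way, so whether the values are particular to the 10 genes was not tested.

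**Figure D2:**
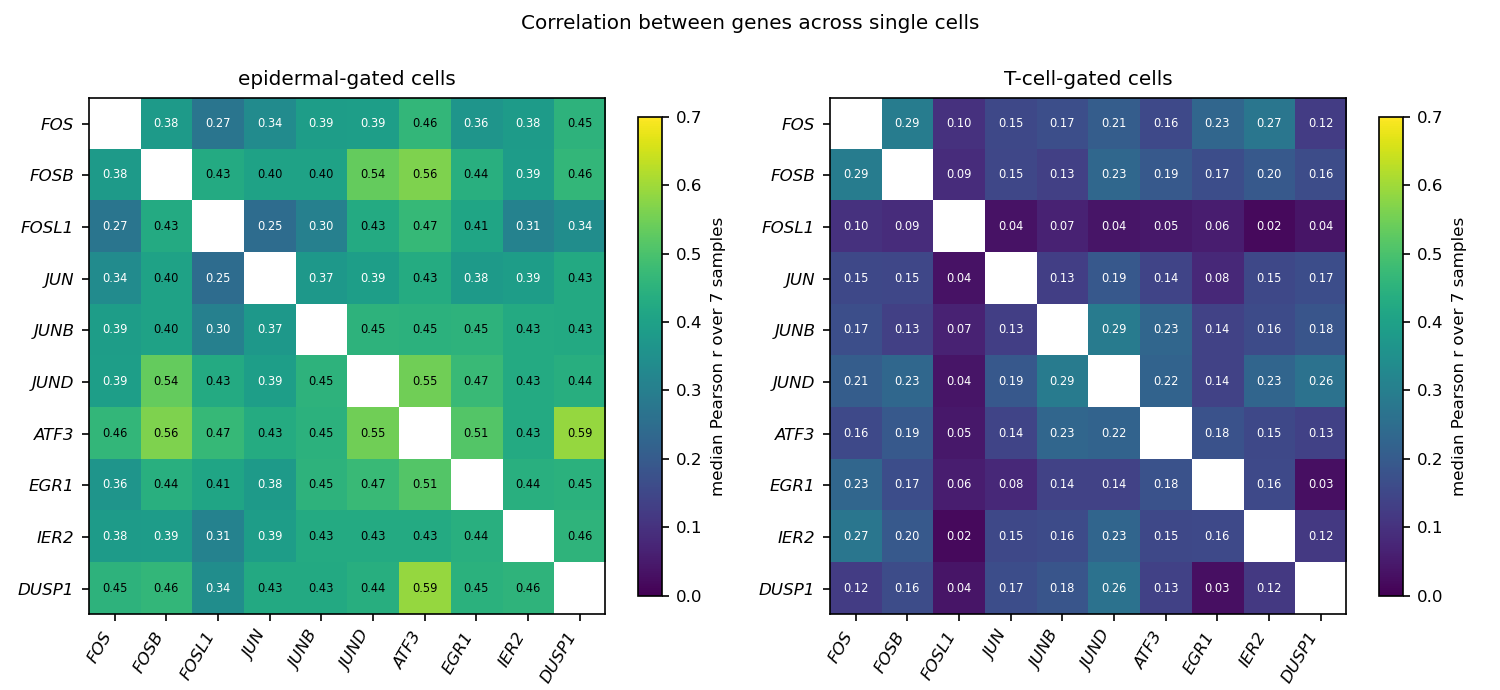
Pearson correlation between the main models across single cells on the log2 scale of UMIs per 10000, as the median over 7 samples, in epidermal-gated (left) and T-cell-gated cells (right). The epidermal values run from 0.25 to 0.59 and the T-cell values from 0.017 to 0.29.

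The first comparison of the groups took all kept cells of a sample together, as a bulk measurement would. FOS had 25.6, 20.5 and 70.2 CPM in intact samples 1, 2 and 4 and 26.3, 54.3, 81.7 and 76.4 CPM in contra samples 1, 2, 4 and 5. The values fell into low samples (intact 1 and 2, contra 1) and higher ones (intact 4, contra 2, 4 and 5), and the groups overlapped. EGR1 split the samples in the same way, with 15.9, 20.7 and 58.7 CPM in intact and 23.3, 45.0, 61.5 and 71.1 CPM in contra samples, and so did ATF3, with 32.1, 27.7 and 69.8 against 25.1, 77.6, 98.8 and 89.9 CPM. The edgeR log2 difference, contra minus intact, was 0.57 ± 0.39 (SE) for FOS, 0.64 ± 0.37 for EGR1 and 0.66 ± 0.40 for ATF3. These values depended on single samples. FOS ran from 0.28 without intact 2 to 0.99 without intact 4, and was 0.37 without contra 4. EGR1 ran from 0.44 to 1.12 without the same samples, ATF3 from 0.44 without intact 2 to 0.95 without contra 1, and JUN from 0.014 without intact 2 to 0.84 without intact 4. The main models above 0 were 9 or 10 of 10 whichever sample was left out, and their median ran from 0.29 to 0.89. Of the 10 main models 9 were above 0 (46.8% of all models were) and 1 (IER2, -0.060 ± 0.20) below, with a median of 0.53 against -0.021 over all 32711 models tested. None of the 16 models was called (edgeR adjusted p 0.976 or above in each of the 15 tested), in a comparison with 0.0% of all models called and 2.57% at an unadjusted p under 0.05, where no member was.

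The low samples were those with few epidermal-gated cells. Of all UMIs, epidermal-gated cells gave 4.96%, 3.57% and 39.1% in intact 1, 2 and 4, against 5.93%, 21.5%, 35.5% and 49.2% in contra 1, 2, 4 and 5. With each sample weighted to the same mix of types, FOS had 65.3, 61.8 and 44.5 CPM in intact and 58.0, 56.1, 59.2 and 42.8 CPM in contra samples, so that intact 4 and contra 5 became the lowest. The difference of mean log2(CPM + 1) went from 0.70 to -0.074 for FOS, from 0.69 to -0.17 for ATF3 and from 0.76 to 0.0035 for EGR1. Over the 10 main models the median went from 0.63 with all cells, through 0.38 without erythroid-gated cells, to -0.10 with the same mix, where 8 lay below 0. No difference with the same mix had an exact permutation p below 0.114, for JUN (33.1 ± 2.59 CPM in intact, n = 3, and 28.4 ± 3.17 CPM in contra samples, n = 4). The weighting was chosen after the data had been seen. In a bulk sum, fewer cells of a type and less RNA per cell cannot be told apart, but single cells give both values. Intact 1, intact 2 and contra 1 had 207, 146 and 258 epidermal-gated cells, with medians of 26929, 31794 and 26303.5 UMIs. Intact 4 and contra 2, 4 and 5 had 1456, 894, 1546 and 2615 such cells, with medians of 25311.5, 23650, 22950 and 17613 UMIs.

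**Figure D3:**
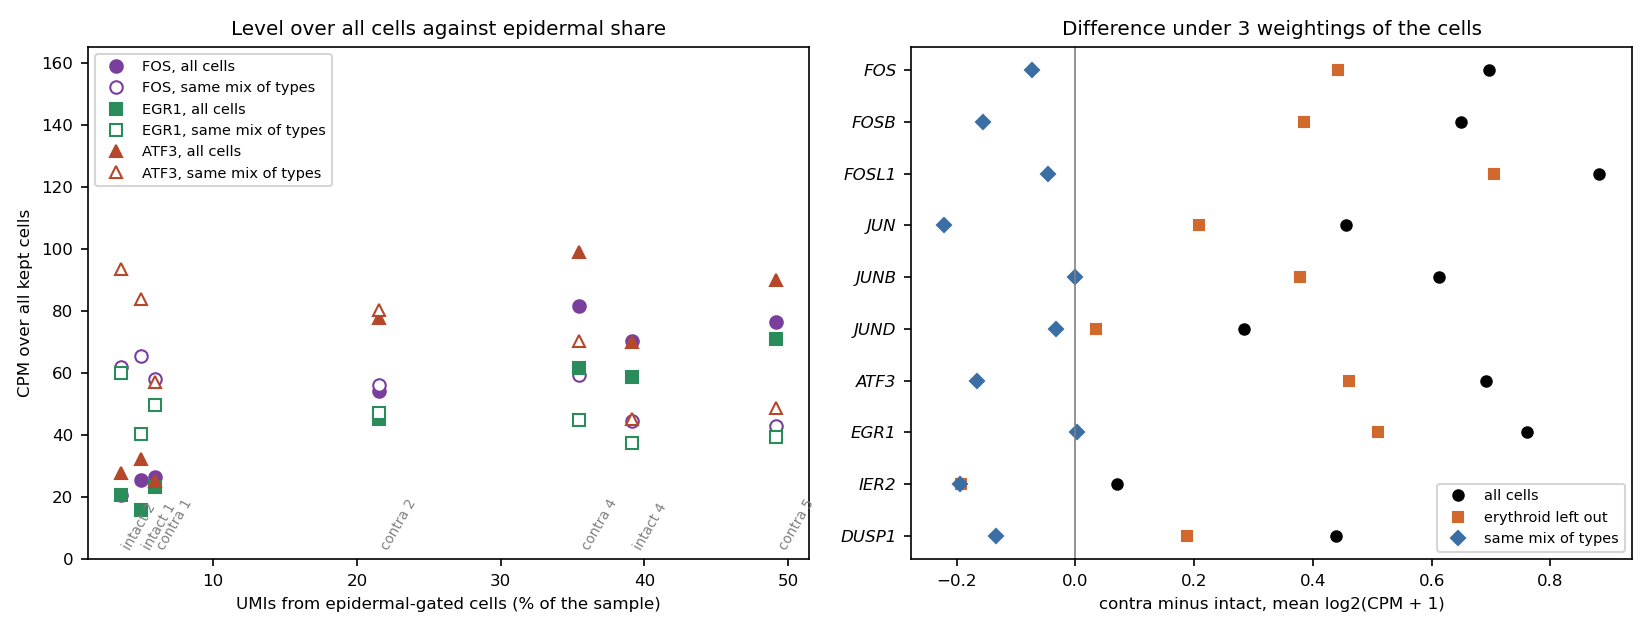
Left, level of FOS, EGR1 and ATF3 over all kept cells of a sample (CPM, filled) against the percentage of UMIs from epidermal-gated cells, with the level at the same mix of types as open symbols. Right, difference between groups in mean log2(CPM + 1) for the 10 main models with all cells (black), without erythroid-gated cells (orange) and with the same mix (blue), where the median is 0.63, 0.38 and -0.10.

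Within epidermal-gated cells, which held 63.3% or more of the UMIs of 8 of the 10 main models (JUND 45.4%, IER2 41.8%), no member was called higher or lower in contra samples. JUN had 99.9, 125 and 99.5 CPM in intact and 79.2, 103, 92.1 and 72.6 CPM in contra samples, with contra 2 inside the intact range. Its log2 difference was -0.29 ± 0.16 (SE, edgeR adjusted p 0.67), the farthest from 0 of the main models. FOS was at -0.12 ± 0.22, EGR1 at -0.061 ± 0.20, ATF3 at -0.23 ± 0.27 and JUND at -0.020 ± 0.17. All 14 models tested lay below 0 in this fit, with a median of -0.18, while 49.0% of all 21050 models lay above 0. Of the 10 main models 4 lay above 0 without intact 2 and 4 without contra 5. None was called (0.0% of all models called), and none of these 14 had groups that did not overlap, as 9.7% of all models did. With the replicate number as a block, which pairs the samples in this type, JUND, JUNB, FOS and EGR1 moved to between 0.028 and 0.069. Contra 5 has no analysed intact sample of its number and does not enter the difference with the block. The block is therefore not separate from leaving out contra 5. None of the 14 was called with the block. Of all 21050 models 66 were, a share too small for a call among 14 to be likely.

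T-cell-gated, B-cell-gated and cytotoxic-gated cells gave no called member either (0.0% of all models called in each). In T-cell-gated cells 3 of the 10 main models were above 0, as 50.8% of all models were, and 7 below, from -0.37 ± 0.29 for DUSP1 to 0.16 ± 0.41 for FOSL1. Intact sample 1 was the highest of the 7 samples for 7 of the 10 in these cells, among them FOS (53.2 CPM), ATF3 (50.01 CPM), IER2 (207 CPM) and DUSP1 (194 CPM). Without intact sample 1 all 10 lay above 0 in T-cell-gated cells, from 0.12 for DUSP1 to 0.60 for FOSL1, and without intact sample 4 all 10 lay below. The same sample set the direction in B-cell-gated cells, where 2 of the 9 main models tested lay above 0 with all samples and 8 of 9 without intact sample 1. No member was called in any of these fits. In cytotoxic-gated cells 6 of 9 lay above 0 with all samples and 4 without intact sample 4. At an unadjusted p under 0.05 there were 0 members in each of these 3 types, against 1.73%, 1.4% and 2.49% of all models in T-cell-gated, B-cell-gated and cytotoxic-gated cells. In B-cell-gated cells the 9 main models tested ran from -0.32 for DUSP1 to 0.29 for FOS, and in cytotoxic-gated cells from -0.65 ± 0.47 for ATF3 to 0.69 ± 0.55 for FOSB. With the block, which pairs the samples in T-cell-gated and cytotoxic-gated cells, 1 model of another gene was called in cytotoxic-gated cells.

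Macrophage-gated cells held the pair of main models whose groups did not overlap, FOSL1 and FOS, as 5.06% of all models did in this type. FOSL1 had 6.95, 9.78 and 5.14 CPM in intact and 25.3, 39.3, 19.98 and 10.4 CPM in contra samples, and contra 5 lay just above intact 2. These levels rest on 4, 9 and 6 UMIs in intact and 16, 29, 13 and 9 UMIs in contra samples. The log2 difference was 1.66 ± 0.47 (SE), with an unadjusted edgeR p of 0.0036 and an adjusted p of 1.00, so it was not called (0.0% of all models called). FOSL1 passed the filter on low counts only through contra 1, 2 and 4. This difference and its p therefore come from a model selected by the group where it was high. With no filter on low counts edgeR called it (1.66 ± 0.41, adjusted p 0.0311). That fit also called models of other genes in these cells, as counted in the last section. The share over all models was not taken for it. An exact permutation test gave p 0.0571, the smallest that 4 against 3 samples allow. The keratins KRT5, KRT12 and KRT15 together had 31.3, 70.7 and 232 CPM in intact and 45.8, 563, 300 and 493 CPM in contra samples of these cells. Contra 2 had the most of both, with 39.3 CPM of FOSL1 and 563 CPM of keratin. Contra 1 had 25.3 CPM of FOSL1 with 45.8 CPM of keratin, and contra 5 had 10.4 CPM with 493 CPM. The part of epidermal RNA in the difference was not tested. Among cells with no UMI of the epidermal gate markers, FOSL1 had 7.66, 10.6 and 5.72 against 19.7, 55.8, 13.1 and 8.83 CPM, and the groups then overlapped (exact permutation p 0.114). The group means of FOSL1 in these cells were 8.0 and 24.4 CPM (difference in mean log2(CPM + 1) 1.20), against 7.29 and 23.7 CPM (1.47) in all macrophage-gated cells. Leaving out 1 intact sample or contra 5 gave edgeR differences from 1.42 to 1.97, and without contra 1, 2 or 4 FOSL1 fell under the filter on low counts. FOS was at 224 ± 17.8 CPM in intact (n = 3) and 283 ± 34.1 CPM in contra samples (n = 4), a log2 difference of 0.31 ± 0.16 (SE) that was not called. The other 8 main models lay between -0.16 ± 0.23 for JUN and 0.32 ± 0.29 for FOSB.

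Erythroid-gated cells had FOSB at 0.753, 0.452 and 0.512 CPM in intact and 0.423, 1.59, 2.10 and 1.86 CPM in contra samples. Contra 2, 4 and 5 were high and contra 1 was the lowest of all, so the groups overlapped. The log2 difference was 1.18 ± 0.47 (SE, edgeR unadjusted p 0.0324, adjusted p 0.963), not called, with 0.0% of all models called and 4.88% at an unadjusted p under 0.05. Contra 2, 4 and 5 were also samples with many epidermal-gated cells, as was intact 4. With no filter on low counts edgeR called FOSB here (1.16 ± 0.25, adjusted p 0.000605). Models of other genes were called by that fit too, as counted in the last section, and the share over all models was not taken. The part of free RNA in this difference was not tested. Over the 10 main models 7 lay above 0, as 50.4% of all models did, and 3 below, with a median of 0.31.

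**Figure D4:**
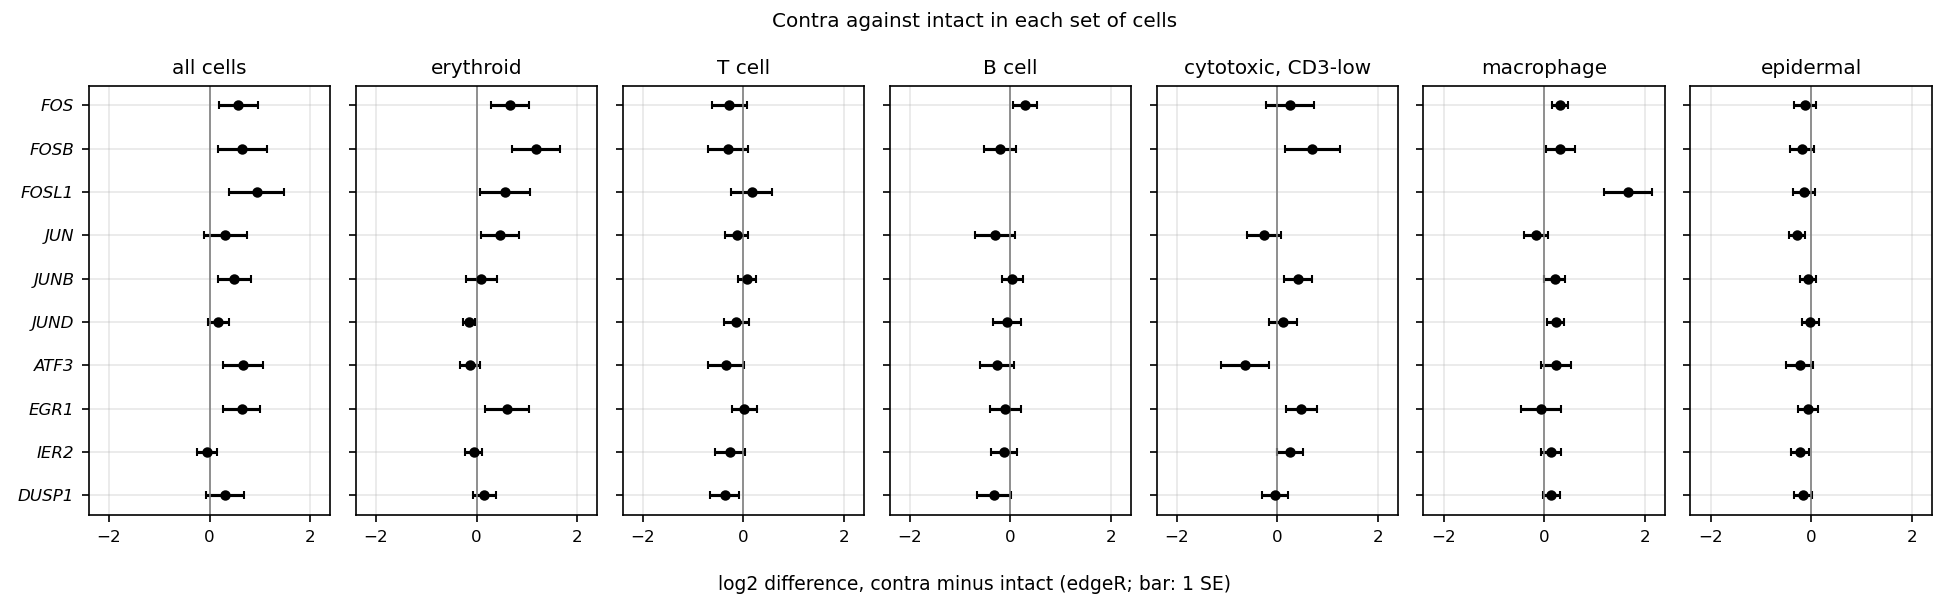
Log2 difference, contra minus intact, of the 10 main models over all cells and within each of 6 types (edgeR; bars are 1 SE; a missing point was not tested). The all-cell values reach 0.93, the epidermal values lie between -0.29 and -0.020, and FOSL1 in macrophage-gated cells is at 1.66. That FOSL1 value was not called and rests on 4 to 29 UMIs per sample. FOSL1 passed the filter on low counts there only through contra 1, 2 and 4.

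**Figure D5:**
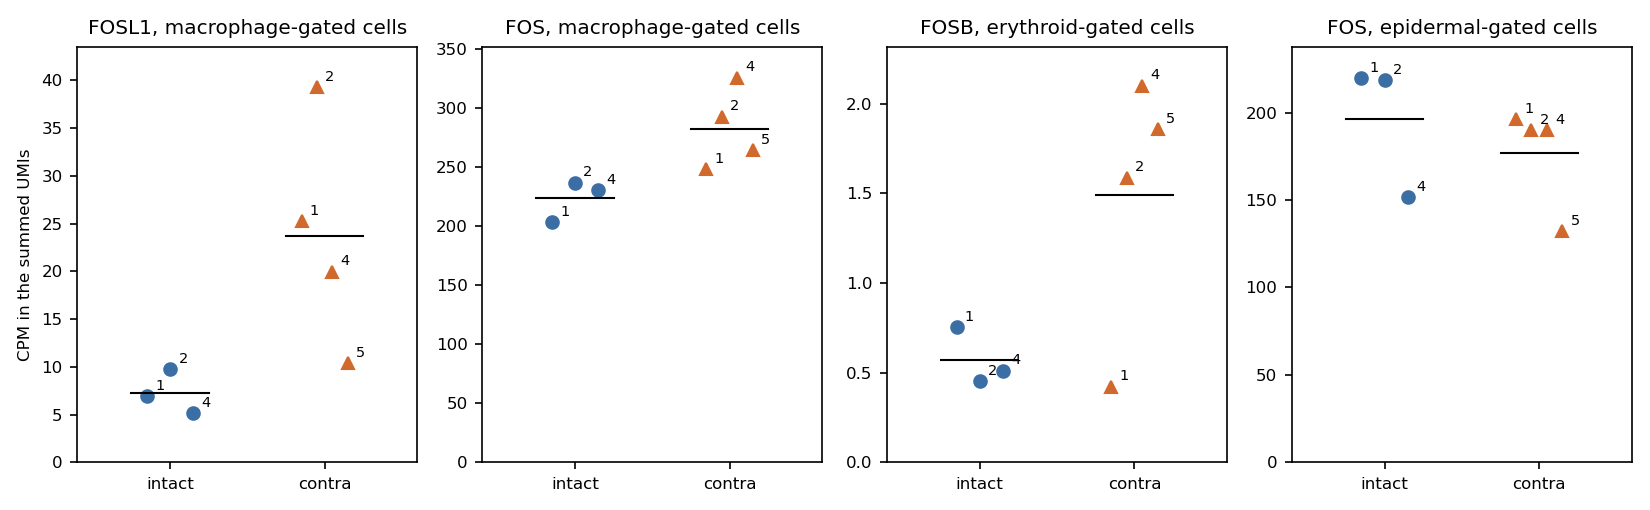
CPM per sample (numbers are replicates, horizontal lines group means) for FOSL1 and FOS in macrophage-gated, FOSB in erythroid-gated and FOS in epidermal-gated cells. The intact and contra samples do not overlap in the first and second panels and overlap in the others.

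Whether a difference between groups itself differed between types was tested for each main model and pair of types. Of 150 such comparisons 0 had an exact permutation p below 0.05, which the design cannot give, and 2 were at the smallest possible 0.0571. These were FOSL1 between macrophage-gated and epidermal-gated cells (1.59 on the log2 scale, adjusted p 0.865 over all 28855 models) and DUSP1 between T-cell-gated and cytotoxic-gated cells (-0.24, adjusted p 0.976). The thinned shares of cells with a UMI were compared between groups by the same kind of exact permutation. That test cannot give a p below 0.0571 whatever the values, so it decides nothing at 0.05.

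Other genes of the pathway were taken from 5 lists with 85 symbols, of which 71 were in the file, on 95 models. None was called in any of the 7 sets of cells. In epidermal-gated cells 3 of 80 tested models were higher and 3 lower at an unadjusted p under 0.05, or 7.50%, against 8.22% of all models (3.59% higher and 4.63% lower). The smallest p there was for PLK2, a serum-inducible kinase, with 66.6, 75.5 and 68.3 CPM in intact and 105, 141, 116 and 90.8 CPM in contra samples, which do not overlap. Its log2 difference was 0.71 ± 0.17 (SE, edgeR adjusted p 0.492). With the replicate number as a block PLK2 was called (0.83 ± 0.09, adjusted p 0.0367), as was KLF10 (0.72 ± 0.10, adjusted p 0.0486), a zinc finger gene induced by TGF-beta, which had 22.8 ± 2.22 CPM in intact and 33.4 ± 5.29 CPM in contra samples. No intact sample with the number of contra 5 was analysed, so contra 5 does not enter the difference with the block. Contra 5 was the lowest contra sample for both PLK2 (90.8 CPM) and KLF10 (25.7 CPM). PLK2 was called by DESeq2 too (adjusted p 0.0439). With no filter on low counts edgeR called PLK2 (0.78, adjusted p 0.00911) and CCN2 AMEX60DD201010721.4 (1.53, adjusted p 0.00163) in these cells. Each of these alternative fits also called models of other genes in epidermal-gated cells, as counted in the last section. The reported fit called 0.0% of all models there. BATF2, a partner of JUN proteins, was lower in contra samples without being called (20.9 ± 5.24 against 11.9 ± 3.58 CPM, log2 difference -0.77 ± 0.25).

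In macrophage-gated cells 12 of 12 tested models of the feedback list lay above 0, with a median of 0.16, and 34 of 49 models of all lists did, against 50.1% of all models. In B-cell-gated cells 0 of 11 models of the feedback list lay above 0, with a median of -0.13, where 47.7% of all models did. Elsewhere it was 8 of 16 over all cells, 5 of 15 in erythroid-gated, 5 of 14 in T-cell-gated, 7 of 16 in epidermal-gated and 9 of 11 in cytotoxic-gated cells. Models of a list share the same samples, and their direction without single samples was not taken. For the main models in B-cell-gated cells it turned without intact sample 1. These counts carry no test. The smallest p values in macrophage-gated cells were for FOSL2, the closest relative of FOSL1, at 70.4 ± 20.7 CPM in intact and 126 ± 47.8 CPM in contra samples (0.81 ± 0.29), for EGR3 (13.1 ± 3.24 and 34.0 ± 28.9 CPM, of which contra 5 had 76.2) and for BTG1 (190 ± 24.2 and 255 ± 58.3 CPM). None of these was called, although with no filter on low counts edgeR called EGR3 (1.44, adjusted p 0.0129), and 2 higher and 0 lower of 49 had an unadjusted p under 0.05, against 3.79% of all models (1.78% higher and 2.01% lower). In erythroid-gated cells 6 of 71 models were higher and 3 lower at an unadjusted p under 0.05 (2.66% and 2.21% of all models), led by ID3 (1.16 ± 0.33), EGR2 (1.41 ± 0.42) and PLK2 (1.75 ± 0.53), at a mean of at most 1.11 CPM in either group. EGR2 rested on 79 UMIs there and passed the filter on low counts only through contra 2, 4 and 5. Its difference thus comes from a model selected by the group where it was high. With no filter on low counts edgeR called ID3 (1.15, adjusted p 0.00394), PLK2 (1.73, adjusted p 5.8e-05) and BATF2 (-0.56, adjusted p 0.0477) in erythroid-gated cells. In macrophage-gated and in erythroid-gated cells that fit called models of other genes too, as counted in the last section. Over all cells 5 of 85 models were higher and 0 lower at an unadjusted p under 0.05 (1.3% and 1.27% of all models). They were led by CCN1 (1.47 ± 0.36), CCN2 AMEX60DD301034258.2 (1.16 ± 0.30) and EGR2 (0.59 ± 0.20). For CCN1 and EGR2, but not for CCN2, the lowest samples were intact 1, intact 2 and contra 1, those with few epidermal-gated cells. These models were not weighted to the same mix of types, so the part of the mix in their differences was not tested. T-cell-gated cells had 0 higher and 1 lower of 77 (1.02% and 0.711% of all models), the other CCN2 model AMEX60DD201010721.4 (6.74 ± 0.49 against 4.90 ± 0.73 CPM), with MAPK3 and GADD45G next. B-cell-gated cells, where SRF, NFKBIA and SIK1 had the smallest p, and cytotoxic-gated cells, where MAP2K1, ZFP36L1 and DUSP5 did, had 0 at an unadjusted p under 0.05 of 54 each. Of all models 0.63% were higher and 0.771% lower at that p in B-cell-gated and 1.48% higher and 1.01% lower in cytotoxic-gated cells.

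The genes most like FOS were found by Pearson correlation over 42 sums (6 types in 7 samples), among 11685 models with a symbol and at least 1000 UMIs. On the levels themselves they were SDC4 (0.97), FOSB (0.97), PGD (0.97), TALDO1 (0.96) and G0S2 (0.96), which follow the order of the types. With the mean of each type taken away, so that only the variation between samples within a type counts, the 5 most like FOS were IER2 (0.71), JUNB (0.68), DUSP1 (0.67), JUND (0.65) and NR4A1 (0.64), of which 4 are among the 10 genes described here. EGR1 was most like NR4A1 in that form (0.70), followed by ZNF160 (0.62) and PTX4 (0.60). JUN was most like FOXO1 (0.63), and DUSP1 was at 0.54. On levels, JUN was most like DUSP1, EFHD2 and HSD17B12 (0.97 each) and EGR1 most like FAM83H, HSD17B12 and CHPT1 (0.96 each). The 42 points share 7 samples, so these values describe the data and carry no test.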

How the data were processed

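The deposited values are UMI counts per gene model and cell, in 1 matrix over all samples, with the sample given at the start of each cell's name. Per the submitters' processing notes the authors used kallisto 0.48.0 and Seurat 4.2.0, with a genome build and annotation not given in the sources used here. In the matrix the lowest cell had 3003 UMIs, and each cell at least 1000 genes. Cells with a Scrublet score above 0.25 (439 of 35013, or 1.25%) were removed with scanpy 1.11.5. Types were set by UMIs of listed markers: at least 30% haemoglobin for erythroid, 5 UMIs for T (with at least 3 of CD3E and CD3G) and B cells, 10 for macrophages and epidermis, and 20 for cytotoxic cells with under 3 CD3 UMIs and no other gate. These minimums, and the markers left out for being widespread (among them IGHM, APOE and the keratins), were set after the marker counts were seen. The 717 cells in several gates, the 942 in none and the 13 fibroblast-gated cells entered no type.

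Counts were summed per sample and type. Contra and intact sums were compared with edgeR 4.0.16 (quasi-likelihood test, TMM scaling, low counts filtered, Benjamini-Hochberg adjustment over all models) in R 4.3.3. Types were compared by an exact two-sided sign-flip test over 7 samples on log2(CPM + 1), adjusted over all models with at least 100 UMIs (an adjustment over the members alone had been planned), and by edgeR with the sample as a block, which was added after seeing the data. Interactions, shares and mixes used exact two-sided permutation of 35 splits, with a smallest p of 0.0571. The reported contra against intact fit was tested on simulated data for epidermal-gated, T-cell-gated and macrophage-gated cells, and so were the exact tests. The alternative fits and the edgeR fit between types were not. Alternatives were DESeq2 1.42.0, no filter, stricter gates, doublets kept, other scales, a replicate block and leaving out each sample. The replicate block takes contra 5 out of the difference between groups, since no intact sample of its number was analysed. Same-numbered samples deviated together (every r above 0.1) over all cells and in T-cell-gated, epidermal-gated and cytotoxic-gated cells, with r from 0.145 to 0.357 in epidermal-gated cells. In erythroid-gated, B-cell-gated and macrophage-gated cells at least 1 pair was below 0.1, though in B-cell-gated cells the pairs were at 0.505, 0.507 and 0.0954. Over all cells intact 4 had an r of 0.487 with contra 4 and up to 0.563 with a contra sample of another number. Named genes are all models of the 10 symbols, the pathway genes called or with the 3 smallest p per type, and the 5 genes most like FOS, JUN and EGR1. Members and lists were chosen with earlier results of these data known. Counting error and the number of samples limit the precision, and macrophage-gated cells were as few as 30 per sample.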

Additional observations from a re-analysis of the deposited data

Results flagged for a closer look

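Of 70 sets of 4 contra samples tested for a sample far from the others, 4 held one, and chance gives about 1 in 20. FOSL1 in B-cell-gated cells was 5.54 CPM in contra sample 5 and 0.734 to 1.43 CPM in the other contra samples. DUSP1 in macrophage-gated cells was 1117 CPM in contra sample 4 and 803 to 838 CPM in the others. FOS in epidermal-gated cells was 132 CPM in contra sample 5 and 190 to 196 CPM in the others. EGR1 in cytotoxic-gated cells was 44.5 CPM in contra sample 5 and 20.6 to 24.1 CPM in the others.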

How the results depend on the processing

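The count of models called between contra and intact samples was 0 in every set of cells as reported. DESeq2 called 14 over all cells, 21 in erythroid-gated, 2 in macrophage-gated and 51 in epidermal-gated cells. With no filter on low counts edgeR called 581 in erythroid-gated, 221 in T-cell-gated, 52 in B-cell-gated, 68 in macrophage-gated, 366 in epidermal-gated and 62 in cytotoxic-gated cells. Among these were 1 member each in erythroid-gated (FOSB) and macrophage-gated cells (FOSL1), and 3, 1 and 2 pathway models in erythroid-gated, macrophage-gated and epidermal-gated cells. Shares over all models were not taken for the fit with no filter, so its calls of members and pathway models decide nothing about them. The replicate block called 1 model in erythroid-gated, 66 in epidermal-gated and 1 in cytotoxic-gated cells, with 2 pathway models in epidermal-gated cells, where DESeq2 called 1. Leaving out each sample in turn gave 0 to 21 models in erythroid-gated, 0 to 1 in T-cell-gated, 0 to 3 in B-cell-gated, 0 to 4 in macrophage-gated and 0 to 1 in cytotoxic-gated cells. With the replicate block IER2 over all cells turned to 0.024, and in epidermal-gated cells JUND turned to 0.069, JUNB to 0.028, FOS to 0.049 and EGR1 to 0.051. With no filter JUND turned to 0.057, JUNB to 0.0086 and EGR1 to 0.012 in epidermal-gated cells. Without 1 sample the log2 difference ranged from -0.24 to 0.11 for IER2 over all cells, and in epidermal-gated cells from -0.27 to 0.045 for DUSP1, -0.13 to 0.17 for JUND, -0.15 to 0.093 for JUNB, -0.29 to 0.056 for FOS, -0.20 to 0.13 for EGR1 and -0.36 to 0.16 for FOSL1. The median of the 10 main models over all cells was -0.10 at the same mix of types. Of the comparisons between types, 125 of 145 passed with edgeR and the sample block against 74 of 150 with the exact test. The exact test gave 53 without haemoglobin and 20 whichever sample was left out, where 6 pairs give a higher smallest p. By pair of types, 22.5% to 74.9% of all models passed with edgeR and 0.0% to 89.3% with the exact test. Shares over all models were not taken for the counts of 53 and 20. JUNB between macrophage-gated and epidermal-gated cells was -0.049 with edgeR. Without thinning, FOS was seen in 70.2%, 90.7% and 21.2% of macrophage-gated, epidermal-gated and T-cell-gated cells, EGR1 in 41.7%, 73.1% and 18.8%, and DUSP1 in 87.9%, 97.2% and 50.8%, so the order of macrophage-gated and epidermal-gated cells turned for FOS and DUSP1. Thinning changes only the number of UMIs per cell, whose median was 21853 in epidermal-gated and 14464.5 in macrophage-gated cells. The cause of the changes under the other settings was not tested. FOSL1 in macrophage-gated cells rested on 4 to 29 UMIs per sample.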
